A study of Drosophila melanogaster with 2 samples.

Results

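The cytochrome P450 genes of *Drosophila melanogaster* were read from the FPKM table by name, as all rows whose gene symbol begins with Cyp and a digit. Of 14794 genes, 86 matched. One of these, *Cyp1*, encodes cyclophilin 1, a peptidyl-prolyl isomerase that is unrelated to the P450 enzymes. Its level was 478 FPKM for the control and 527 for *heph2*. It was set aside, which left 85 P450 genes in 20 numbered families. The libraries were made from polyadenylated RNA of whole adult males aged 1 to 3 days, 1 library from *heph2* homozygotes and 1 from *heph2/TM3* males, which serve as the wild-type control. The *heph2* allele is a *P* element insertion in the gene of the polypyrimidine tract-binding protein, and TM3 is a balancer of chromosome 3. The control males thus carry a *heph2* chromosome as well, and the libraries differ in the second copy of chromosome 3 as a whole. How many flies went into each library is not given in the sources used here. The *heph* gene itself, measured over all of its exons, stood at 44.0 FPKM in control males and 27.2 in *heph2* males. This is not the level of full-length transcript. The authors report that reads fall off sharply past the insertion in *heph2* homozygotes and that nearly all *heph* transcripts are truncated.

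The libraries also differed in genes of the reproductive tissues, which is given here because P450 levels differ between tissues and sexes. The authors describe both libraries as made from males. Even so, 7 matched yolk protein and eggshell genes summed to 276 FPKM in the control and to 16.5 in *heph2*. All 7 were at least 2-fold lower in *heph2*. The 9 testis genes were all higher in *heph2*, with a median log2 ratio of 0.65 of the *heph2* over the control level. All had at least 184 FPKM in each library. Over all genes with a mean of 100 FPKM or more, the median was 0.32 and 18.2% lay below 0. The 7 genes of the accessory gland were all lower, with a median of -0.93. The part of these tissues in the P450 values was not tested, and in whole flies fewer cells of a type and less RNA per cell cannot be told apart.

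P450 enzymes are heme proteins that insert an oxygen atom from molecular oxygen into their substrate, with electrons from a reductase. Microsomal P450s receive the electrons from NADPH-cytochrome P450 reductase, and mitochondrial P450s from a ferredoxin and its reductase. In insects, some P450s have fixed tasks, such as the making of the molting hormone ecdysone and of the hydrocarbons that waterproof the cuticle, while many others, mostly of the Cyp6, Cyp9, Cyp12, Cyp28 and Cyp4 families, act on plant toxins and insecticides in the midgut, the Malpighian tubules and the fat body. The families form 4 larger groups or clans, CYP2, CYP3, CYP4 and the mitochondrial clan.

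FPKM gives the fragments of a gene relative to the length of its transcript and to a measure of library size, which allows levels to be compared between genes. By the read estimates described below, this measure did not follow the mapped reads that the authors report for the libraries. Scaling on those mapped reads shifts each log2 ratio by -0.28, and the main ratios are given without this shift. For each gene the log2 ratio of the *heph2* value to the control value was taken. A negative ratio means a lower level in *heph2*. Ratios were compared for the 78 P450 genes with a mean of at least 1 FPKM over both libraries, beside the 11962 genes of the table that met the same condition. With 1 library per genotype no difference could be checked against replicates, and p-values were not computed. Each difference is one between these libraries. The reads behind each value were estimated from the FPKM steps of low genes and from transcript lengths, and lay between 80 and 300183 for the compared P450 genes in the control and between 42.9 and 142727 in *heph2*. A 95% interval of each ratio was computed from these reads by the exact Clopper-Pearson method. It covers counting error only, and not differences between flies or between library preparations.

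The P450 genes covered a wide range of levels. *Cyp4g1* stood far above all others, with 3082 FPKM in control males and 2263 in *heph2* males. It encodes the oxidative decarbonylase that makes cuticular hydrocarbons in the oenocytes, and it alone made up 58.6% of the summed P450 FPKM in the control and 52.2% in *heph2*. Among all genes it ranked 35th in the control and 106th in *heph2*. The next were *Cyp313a1*, with 285 FPKM in control males and 358 in *heph2* males, *Cyp6w1*, at 179 and 91.8 FPKM, and *Cyp6d5*, at 151 and 136 FPKM. *Cyp28d1* had 129 FPKM in control males and 137 in *heph2* males. *Cyp312a1* had 135 FPKM in control males and 110 in *heph2* males. The 10 most abundant P450 genes were the same in both libraries, and 40 of the 85 had at least 10 FPKM in both. No P450 gene was listed at 0 in either library.

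**Figure D1:**
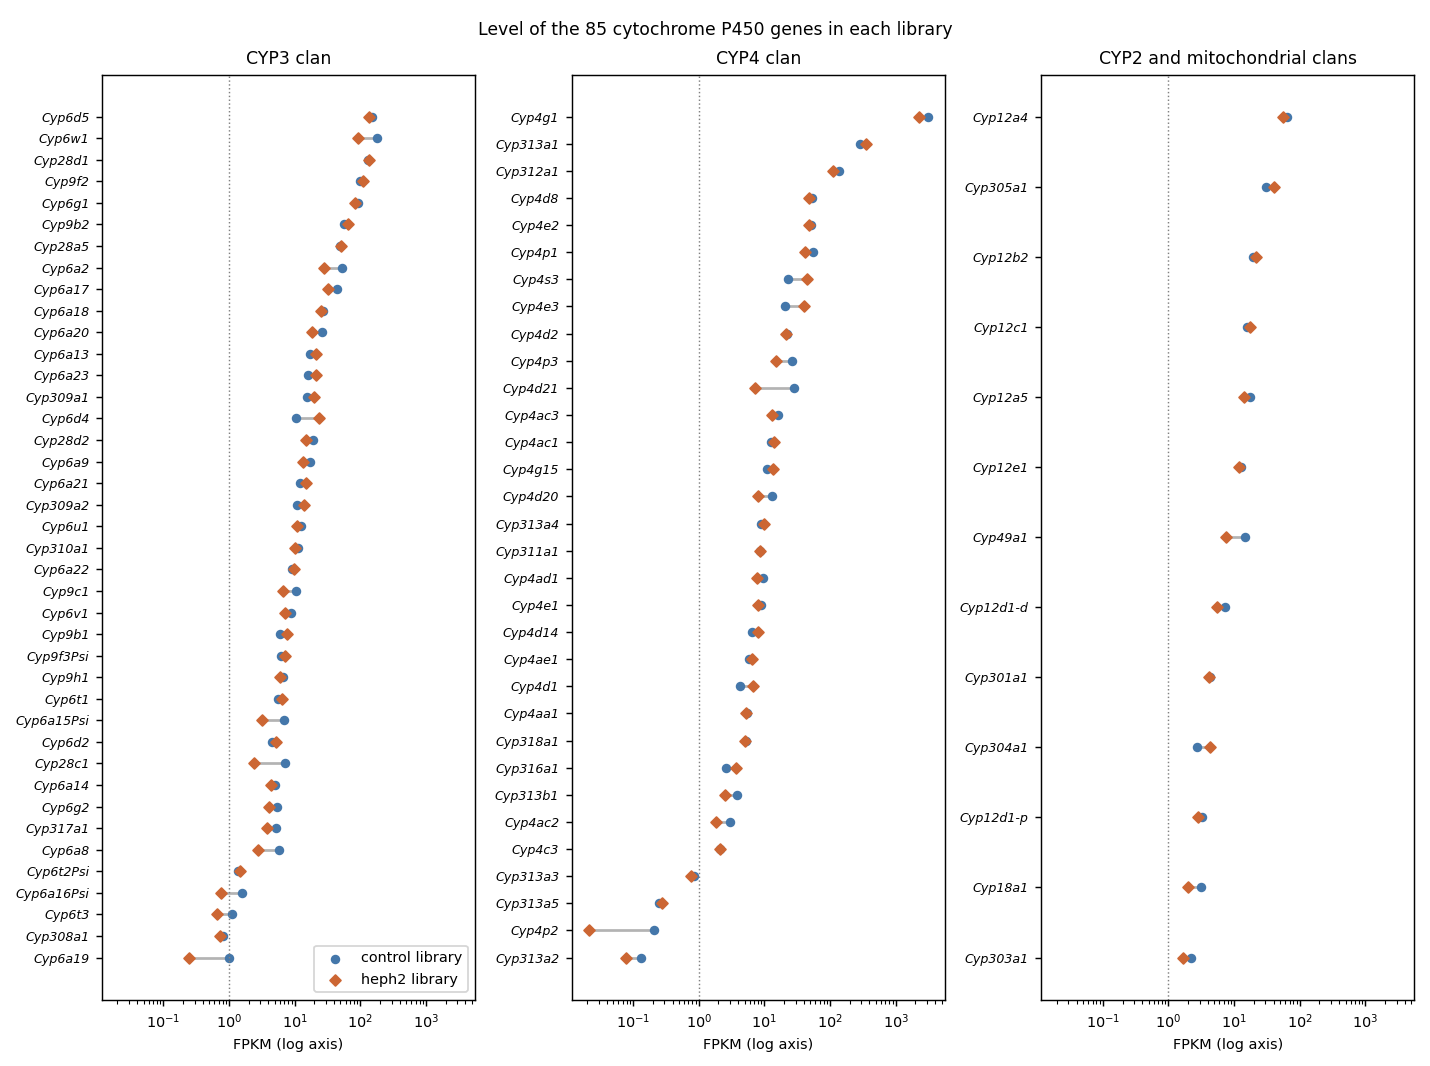
Level of each of the 85 P450 genes in the control library (circles) and the *heph2* library (diamonds), in FPKM on a log axis, with the genes of each clan ordered by mean level and a dotted line at 1 FPKM. Most pairs lie close together, while *Cyp4d21*, *Cyp28c1* and *Cyp6w1* are visibly lower in *heph2* and *Cyp6d4*, *Cyp4e3* and *Cyp4s3* higher.

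The summed level of the 85 P450 genes was 5256 FPKM in control males and 4331 in *heph2* males, which is 82.4% of the control. Most of this difference came from *Cyp4g1*. Without it the sums were 2174 and 2069 FPKM, or 95.2% of the control. As a share of the FPKM of all genes, the P450 genes made up 0.462% in the control and 0.312% in *heph2*. The FPKM of all genes summed to more in *heph2*, at 122% of the control.

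The median log2 ratio of the 78 compared P450 genes was -0.12, beside 0.01 for all genes compared. A total of 47 P450 genes were lower in *heph2* and 31 higher, and 60.3% below 0 compares with 48.5% of all genes. The quartiles of the P450 genes lay at -0.41 and 0.18, and those of all genes at -0.24 and 0.29. Ratios moved with level across the whole table. Over all genes the median was -0.18 for a mean of 1 to 10 FPKM, 0.06 for 10 to 100 FPKM and 0.32 for 100 FPKM or more. The P450 genes did not follow this order, with medians of -0.15 over 35 genes, -0.11 over 36 genes and -0.15 over 7 genes in the same ranges. P450 transcripts are of similar length, with a median of 1785 nucleotides. Over 2167 compared genes with transcripts between the 10th and 90th percentile of P450 lengths, the median log2 ratio was -0.03. From the estimated reads, the counting interval lay above 0 for 21 P450 genes and below 0 for 37, and it held 0 for 19. These counts depend on depth and on the scaling, and no such counts were made over all genes.

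At least 2-fold differences were few. Of the 78 P450 genes, 5 or 6.41% were at least 2-fold lower in *heph2*, where 2.44% of all genes were, and 2 genes, or 2.56%, were at least 2-fold higher, where 2.79% of all genes were. At least 1.5-fold, 14 P450 genes or 17.9% were lower against 7.26% of all genes, and 5 genes or 6.41% were higher against 9.16% of all genes. Of the 2167 compared genes of P450 transcript length, 5.81% were at least 1.5-fold lower and 4.06% higher. At least 2-fold, 1.94% of these were lower and 1.25% higher. The P450 shares of higher genes were thus below those of all genes but above those of genes of similar length. The remaining 59 P450 genes differed by less than 1.5-fold. These counts depended on the scaling. When each library was scaled to its summed FPKM, 10 P450 genes were at least 2-fold lower and 0 higher, and 5.02% and 1.40% of all genes were. This scaling shifts each log2 ratio by -0.28, and centring on ribosomal protein genes puts the median of all genes -0.44 lower, so that positive ratios and medians smaller than these shifts, such as those of the Cyp9 family, change sign.

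*Cyp4d21* had the lowest ratio among the compared P450 genes. It had 28.4 FPKM in control males and 7.24 in *heph2* males, from about 2156 and 356 reads, and the log2 ratio of -1.97 had a counting interval from -2.14 to -1.81. This gene (FBgn0031925, chromosome 2L from 7605600 to 7607703 in release 5 coordinates) is also known as sex-specific enzyme 1, which is enriched in the heads of males and linked to courtship. Of all genes compared, 0.385% lay below it.

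*Cyp28c1* (FBgn0030339, chromosome X from 11733643 to 11735391) had 7.22 FPKM in control males and 2.40 in *heph2* males. Its log2 ratio was -1.59 with an interval from -1.91 to -1.28. The 3 other genes of the Cyp28 family did not share this difference, with log2 ratios of 0.08 for *Cyp28d1*, 0.06 for *Cyp28a5* and -0.35 for *Cyp28d2*.

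The other 3 genes past 2-fold were all of the Cyp6a subfamily and close to the threshold. *Cyp6a8*, known for its induction by barbiturates and caffeine and its high level in DDT-resistant strains, had 5.79 FPKM in control males and 2.81 in *heph2* males, a log2 ratio of -1.04 with an interval from -1.33 to -0.76. *Cyp6a15Psi* stood at 6.98 and 3.21 FPKM, a log2 ratio of -1.12 with an interval from -1.52 to -0.74. *Cyp6a16Psi* stood at 1.58 and 0.770 FPKM, a log2 ratio of -1.03 with an interval from -1.56 to -0.53. The intervals of these genes all reached across the 2-fold line. The suffix Psi marks a presumed pseudogene, and of the 4 such rows the BDGP6 annotation lists *Cyp6a15Psi* and *Cyp6t2Psi* as pseudogenes and the other 2 as protein coding. Without the rows marked Psi, 3 of 74 P450 genes, or 4.05%, were at least 2-fold lower, beside 2.44% of all genes.

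Just short of 2-fold were 3 genes with more reads. *Cyp6w1*, which has been found at higher levels in DDT-resistant flies, had a log2 ratio of -0.97 with an interval from -1.01 to -0.92, from about 15207 control reads and 5037 *heph2* reads. *Cyp49a1*, of the mitochondrial clan, stood at 14.7 and 7.49 FPKM, a log2 ratio of -0.97. *Cyp6a2*, also linked to DDT resistance, had 52.4 FPKM in control males and 27.9 in *heph2* males, a log2 ratio of -0.91. All 3 passed 2-fold when the libraries were scaled to their summed FPKM.

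The other 6 genes at least 1.5-fold lower were 3 Cyp4 genes and 1 each of Cyp9, Cyp18 and Cyp313. *Cyp4p3* stood at 26.0 FPKM in control males and 14.97 in *heph2* males, a log2 ratio of -0.80. Its neighbor *Cyp4p1* was at -0.39, with 55.3 FPKM in control males and 42.2 in *heph2* males, so that both compared Cyp4p genes were lower. *Cyp4ac2* was at -0.72 from 2.99 and 1.81 FPKM and *Cyp4d20* at -0.71 from 12.9 and 7.92 FPKM. *Cyp9c1* was at -0.65, *Cyp313b1* at -0.61 and *Cyp18a1* at -0.66. The counting intervals of all 6 lay below 0.

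Only *Cyp6d4* and *Cyp4e3* were at least 2-fold higher in *heph2*. *Cyp6d4* (FBgn0039006, chromosome 3R from 18524047 to 18526029) had 10.6 FPKM in control males and 23.2 in *heph2* males, a 2.19-fold difference, with a log2 ratio of 1.13 and an interval from 1.0 to 1.26. *Cyp4e3* (FBgn0015035, chromosome 2L from 9747839 to 9750071), which protects against permethrin in the Malpighian tubules, stood at 20.4 and 40.9 FPKM. Its log2 ratio of 1.0 lay on the threshold, with an interval from 0.91 to 1.10, and centring the ratios on the median of all genes took it below. *Cyp4s3* came next, with 23.1 FPKM in control males and 44.5 in *heph2* males and a log2 ratio of 0.95. *Cyp4d1* and *Cyp304a1* followed, with log2 ratios of 0.65 and 0.63 and levels under 10 FPKM in both libraries. None of these 5 genes was 2-fold higher when the libraries were scaled to their summed FPKM.

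**Figure D2:**
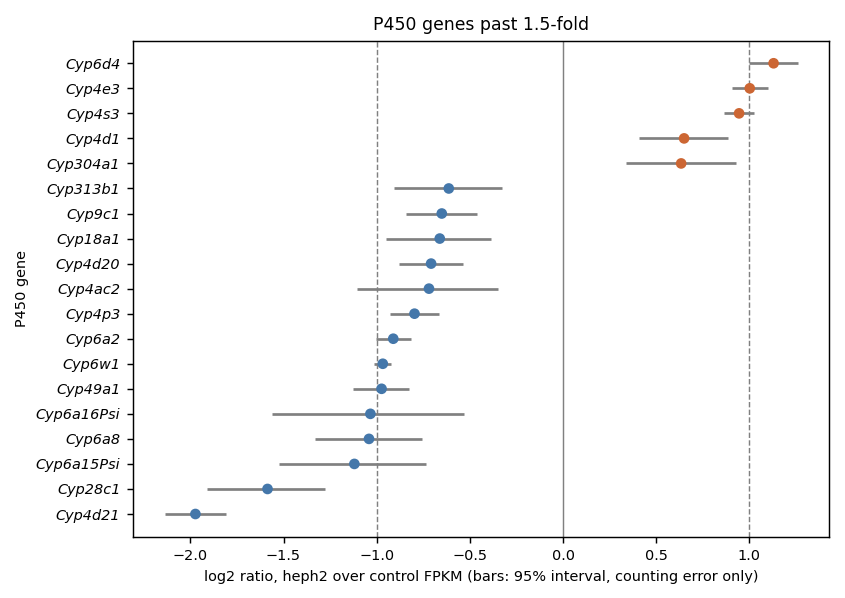
Log2 ratio of *heph2* over control FPKM for the 19 P450 genes past 1.5-fold, with bars for the 95% interval of counting error and dashed lines at 2-fold. Of the 14 genes that were lower in *heph2*, only *Cyp4d21* and *Cyp28c1* have intervals wholly beyond the 2-fold line.

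By family, the 23 compared Cyp6 genes had a median log2 ratio of -0.17, with 15 lower and 8 higher in *heph2*, and the 21 compared Cyp4 genes a median of -0.10, with 14 lower and 7 higher. Within Cyp6, the 13 compared Cyp6a genes had a median of -0.33 and ratios from -1.12 to 0.38. The 3 Cyp6d genes ran from -0.15 for *Cyp6d5* to 1.13 for *Cyp6d4*. The 6 Cyp4d genes spanned -1.97 for *Cyp4d21* to 0.65 for *Cyp4d1*, and the 3 Cyp4e genes -0.19 to 1.0, so that members of 1 subfamily lay on both sides of 0.

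The 7 Cyp12 genes, of the mitochondrial clan, had a median of -0.18 and ratios from -0.42 to 0.16. Of these, *Cyp12a5* was the lowest after *Cyp12d1-d*, with 17.4 FPKM in control males and 14.2 in *heph2* males, and *Cyp12c1* the highest, with 15.6 and 17.5 FPKM. The 6 Cyp9 genes had a median of 0.16, with 4 of them higher and *Cyp9c1* the lowest at -0.65. Their most abundant gene, *Cyp9f2*, stood at 98.5 FPKM in control males and 109 in *heph2* males. Of the 6 Cyp313 genes, *Cyp313a1* was at 0.33, *Cyp313a4* at 0.13 and *Cyp313b1* at -0.61, and the other 3 had a mean under 1 FPKM. Both Cyp309 genes were higher, at 0.39 for *Cyp309a1* and 0.33 for *Cyp309a2*. Of the 12 compared genes that are alone in their family, *Cyp304a1*, *Cyp316a1* at 0.51 and *Cyp305a1* at 0.39 were the highest and *Cyp49a1* and *Cyp18a1* the lowest. *Cyp310a1*, *Cyp311a1*, *Cyp318a1* and *Cyp301a1* lay between -0.11 and 0.01. By clan, the medians were -0.14 over 37 genes of CYP3, -0.06 over 28 genes of CYP4, -0.18 over 9 mitochondrial genes and -0.02 over 4 genes of CYP2.

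**Figure D3:**
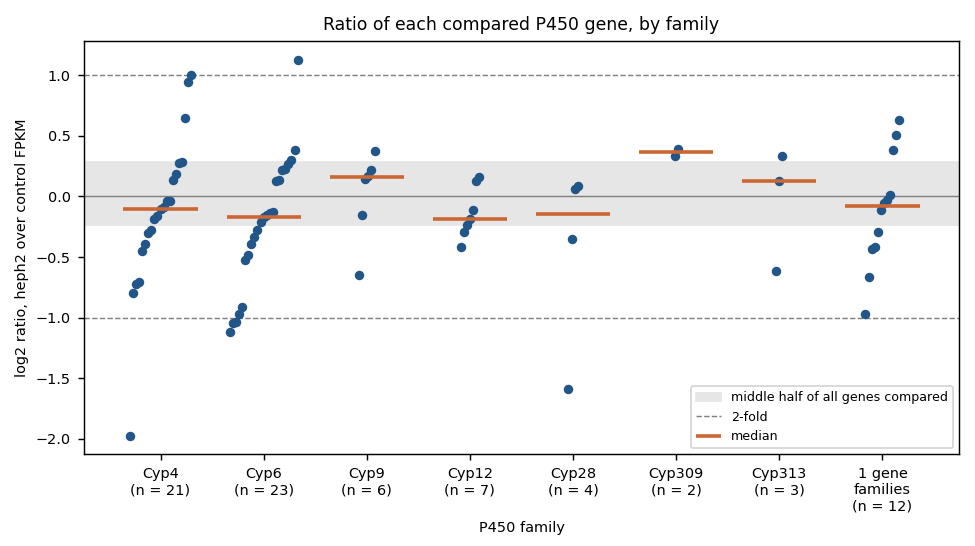
Log2 ratio of *heph2* over control FPKM for the 78 compared P450 genes by family, with a bar at each family's median, the families with 1 compared gene drawn together, a grey band for the quartiles of all genes compared and dashed lines at 2-fold. Most points fall near the band, with *Cyp4d21* and *Cyp28c1* lowest, and the Cyp6 and Cyp4 families spread furthest.

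Among the genes with tasks in the cuticle, *Cyp4g1* (FBgn0010019, in a region of chromosome X from 173736 to 364670 that the table lists for 12 genes) had a log2 ratio of -0.45, or 73.4% of the control. With an estimated 300183 and 142727 reads its counting interval was narrow, from -0.45 to -0.44. Its paralog *Cyp4g15*, which is expressed in the nervous system, had 11.05 FPKM in control males and 13.4 in *heph2* males, a log2 ratio of 0.28. *Cyp301a1*, needed for the adult cuticle, stood at 4.31 and 4.16 FPKM. *Cyp303a1*, which acts in the development of sense organs, stood at 2.22 and 1.66 FPKM, a log2 ratio of -0.42. Of 4 oenocyte genes that are no P450s, desat1 had a log2 ratio of -0.12, bond 0.19 and eloF 0.82, and the female desaturase Fad2 had about 54 reads in the control and 1 in *heph2*. The oenocyte genes thus stood on both sides of 0, and their part in the value of *Cyp4g1* was not tested.

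A list of 18 P450 genes that are linked to insecticides or induced by toxins held 17 compared genes, with a median log2 ratio of -0.18. Of these, 12 were lower and 5 higher in *heph2*, and 1 in each direction passed 2-fold, *Cyp6a8* and *Cyp6d4*. The 70.6% below 0 stand beside 60.3% of the 78 compared P450 genes, which include this list, and 48.5% of all genes. The 5.88% past 2-fold in each direction stand beside 2.44% lower and 2.79% higher among all genes. Among the 78 P450 genes these shares were 6.41% and 2.56%. *Cyp6g1*, whose high level gives DDT resistance, was near equal in the libraries, with 91.95 FPKM in control males and 83.7 in *heph2* males and a log2 ratio of -0.14. *Cyp12a4*, linked to lufenuron resistance, stood at 64.5 and 54.9 FPKM, a log2 ratio of -0.23. *Cyp9b2* went the other way, at 56.0 and 65.3 FPKM. The summed level of the 18 genes was 910 FPKM in control males and 783 in *heph2* males. Most of this difference lay in *Cyp6w1* and *Cyp6a2*, both on the list, with the levels given above.

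A few P450 genes are known for a part in behavior or in hormone metabolism. *Cyp6a20*, linked to aggression between males, had 26.5 FPKM in control males and 18.4 in *heph2* males, a log2 ratio of -0.52 with an interval from -0.64 to -0.41, nearer to 0 than that of *Cyp4d21*. *Cyp304a1*, also listed for behavior, went the other way, with a log2 ratio of 0.63. *Cyp18a1*, which inactivates ecdysone by hydroxylation, stood at 3.19 and 2.01 FPKM, a log2 ratio of -0.66 with an interval from -0.95 to -0.38. *Cyp6t3*, which acts in the larval prothoracic gland, had about 79 reads in the control and 30 in *heph2*, and its mean level was under 1 FPKM. *Cyp6g2*, expressed in the corpora allata, had a log2 ratio of -0.40.

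The P450 enzymes that make ecdysone are listed under their own names and so are not among the 85. Of the 8 genes of this pathway (nvd, sro, spo, spok, phm, dib, sad and shd), only shd reached a mean of 1 FPKM. It encodes the enzyme that turns ecdysone into the active 20-hydroxyecdysone, and it had 4.99 FPKM in control males and 3.20 in *heph2* males, a log2 ratio of -0.64. The others were at or below 0.774 FPKM in each library. Of these, phm had about 20 reads in the control and 4 in *heph2*, and dib about 26 and 6, log2 ratios of -1.62 and -1.51. The log2 ratio was 0.04 for spo, with about 25 and 17 reads, and -0.16 for sad, with about 57 and 33. It was 0.10 for sro and -0.47 for nvd, and spok had about 3 reads and 1. Some of the enzymes of this pathway are also made in the follicle cells of the ovary. The lower level of the yolk protein and eggshell genes in *heph2* is given above. The part of the ovary in the values of the ecdysone genes was not tested.

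The partners that pass electrons to P450s did not move in 1 direction. Cpr, the NADPH-cytochrome P450 reductase, had 304.1 FPKM in control males and 228 in *heph2* males, a log2 ratio of -0.42, close to that of *Cyp4g1*. Cyt-b5, which can give the second electron, stood at 659 and 705 FPKM, a log2 ratio of 0.10. On the mitochondrial side, dare, the ferredoxin reductase, was at -0.03, while the ferredoxin genes Fdxh and CG1319 were at 0.49 and 0.80. Cyt-b5-r, which was listed with these genes, had 218 FPKM in control males and 260 in *heph2* males, a log2 ratio of 0.25. None of the 6 listed genes passed 2-fold.

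Many P450 genes lie next to each other, and 33 of the 85 fell into 8 groups of at least 3 neighbors with gaps of at most 20000 bases. The largest, on chromosome 2R from 10759178 to 10788556, held 8 Cyp6a genes and *Cyp317a1*. Its 8 compared genes ran from -1.04 for *Cyp6a8* to 0.38 for *Cyp6a23*, with 5 lower and 3 higher. *Cyp6a17*, which affects temperature preference, had 44.5 FPKM in control males and 31.8 in *heph2* males, and its neighbor *Cyp6a23* stood at 16.2 and 21.1 FPKM. On chromosome X, 3 of the 4 genes *Cyp4d1*, *Cyp4d14*, *Cyp4d2* and *Cyp4ae1* were higher, with a median of 0.23. All 3 genes of the group of *Cyp4ad1*, *Cyp4e2* and *Cyp4e1* were lower, between -0.30 and -0.10.

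**Figure D4:**
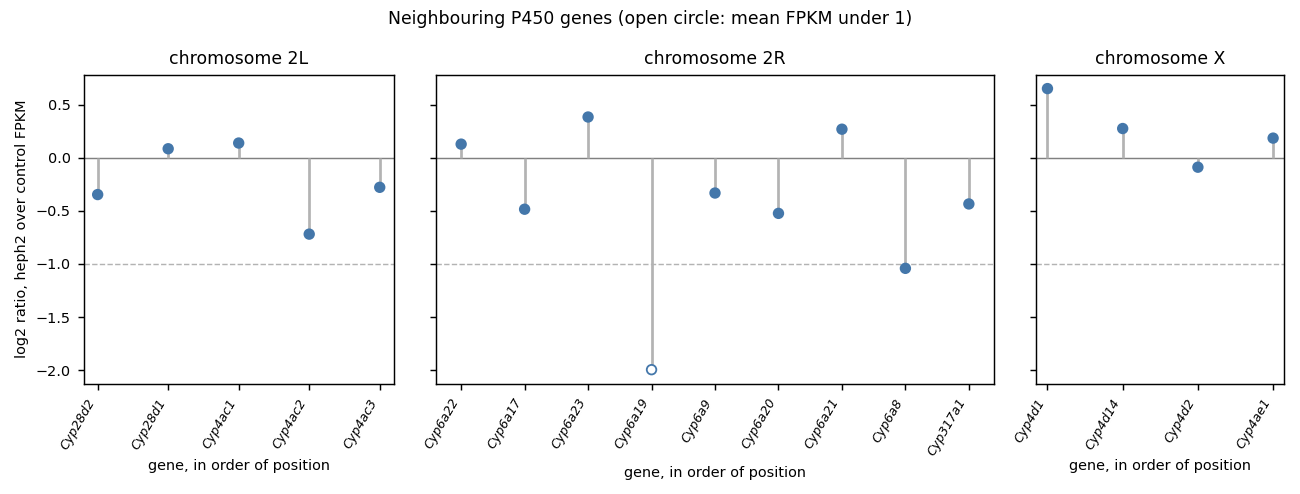
Log2 ratio of *heph2* over control FPKM for the 3 groups with at least 4 neighboring P450 genes, on chromosomes 2L, 2R and X, in order of position. Genes that share a locus entry in the table (*Cyp4ac1*, *Cyp4ac2* and *Cyp4ac3*, and *Cyp6a19* with *Cyp6a9*) are in order of name, the open circle marks *Cyp6a19* with a mean under 1 FPKM, and ratios of both signs stand side by side in each group.

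Reads of near-identical copies cannot be assigned with certainty. This applies to *Cyp12d1-d* and *Cyp12d1-p*, a recent duplication, which stood at 7.37 and 3.24 FPKM in control males and at 5.52 and 2.85 FPKM in *heph2* males. *Cyp6a17* and *Cyp6a23* are also close relatives. In addition, the table gives 29 of the 85 genes a region that holds further genes. The 7 genes past 2-fold were all among the 56 that are alone in theirs. Of the 52 compared ones, 9.62% were at least 2-fold lower and 3.85% higher, beside 2.98% and 3.04% of all genes alone in their region.

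The 7 P450 genes with a mean under 1 FPKM were *Cyp4p2*, *Cyp6a19*, *Cyp6t3*, *Cyp308a1*, *Cyp313a2*, *Cyp313a3* and *Cyp313a5*. *Cyp4p2* had about 15 reads in the control and 1 in *heph2*, a log2 ratio of -3.28 with an interval from -8.68 to -0.58. *Cyp6a19* had 0.999 FPKM in control males and 0.251 in *heph2* males, a log2 ratio of -1.99 with an interval from -3.03 to -1.13. The intervals of *Cyp308a1*, *Cyp313a2*, *Cyp313a3* and *Cyp313a5* held 0. At these levels a 2-fold difference was not detectable for *Cyp313a2*, with about 9 and 3 reads.

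Since the libraries differ in 1 copy of chromosome 3, the P450 genes on it were looked at apart. The 19 compared genes on chromosome 3 had a median log2 ratio of -0.03, with 0 at least 2-fold lower and 1, *Cyp6d4*, at least 2-fold higher. The 59 compared genes elsewhere had a median of -0.15, with 5 lower and 1 higher. These are 0% lower and 5.26% higher on chromosome 3, where 3.26% and 2.98% of all genes were, and 8.47% lower and 1.69% higher elsewhere, where 1.79% and 2.64% of all genes were. For all genes the medians were 0.00 on chromosome 3 and 0.02 elsewhere. The effect of the balancer and that of the *heph2* mutation cannot be told apart, on this chromosome or elsewhere, because the libraries differ in both.

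Marker genes of the tissues in which P450s are known to act also differed between the libraries. All 7 Malpighian tubule genes were lower in *heph2*, with a median log2 ratio of -0.24 and a sum of 244 FPKM in control males and 183 in *heph2* males. All 9 midgut genes were higher, with a median of 0.87 and sums of 918 and 1332 FPKM. Over all genes the median was -0.18 for a mean of 1 to 10 FPKM, 0.06 for 10 to 100 FPKM and 0.32 for 100 FPKM or more. The 6 fat body genes had a median of 0.03, with 3 on each side, and Lsp2 and Fbp1 at least 2-fold higher. All 8 eye and antenna genes were lower, with a median of -0.30. None of the matched markers was at 0 in either library. Their part in the P450 values was not tested.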

How the data were processed

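Polyadenylated RNA of whole males was sequenced as single reads of 50 bases, 1 library per genotype. The authors mapped the reads with TopHat 2.0.4 to FlyBase r5.44 and computed FPKM values with Cufflinks 2.0.0. The deposited table holds the FPKM of each gene in each library and the authors' own log2 ratio, which was not used. Cuffdiff is also named, without a version. FPKM values hold no read counts, and no count test was run.

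Starts were given from 0 in the table (1489 of 8716 loci of 1 gene matched the BDGP6 gene length that way, 146 from 1), so 1 was added. Reads per gene were estimated with BDGP6 median transcript lengths, a fragment length of 200 ± 80 bases and the FPKM of 1 read on 1 kilobase, 0.0213 in the control and 0.0329 in *heph2*. Of low genes with a single transcript, 60.9% of 417 and 63.6% of 481 lay within 0.1 of a whole read. *Cyp6a21* had no transcript length and no estimate. PCR copies are not independent molecules.

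Genes were compared if their mean was at least 1 FPKM and neither value was 0, without a pseudocount. Named were the P450 genes past 2-fold, the 10 most abundant, the 5 largest increases and decreases, those of the role lists, and the pathway and marker lists. Further genes were named after their values were seen, to describe a family or a group of neighbors. Gene lists and members were chosen with earlier results of these data known. Alternatives were pseudocounts of 0.1 and 1, other minimums, 5 other scalings, genes in shared loci left out, and a 1.5-fold threshold. The scaling on mapped reads was added after seeing the data, as were the settings that leave out Psi rows, chromosome 3 or *Cyp4g1* or that count *Cyp1*. Counts were said to have moved past 1.5 times, and a median or sum past 0.1 on the log2 scale. Python 3.11.15, numpy 2.4.6, pandas 2.3.3, scipy 1.17.1 and matplotlib 3.10.9 were used, and the steps were tested on simulated libraries. Of the 14794 gene identifiers, 13462 matched BDGP6.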

Additional observations from a re-analysis of the deposited data

How the results depend on the processing

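The count of P450 genes at least 2-fold higher was 1 with a pseudocount of 0.1 or 1, with ratios centred on the median of all genes and without chromosome 3, where the report gives 2. Of all genes, between 2.55% and 2.96% were higher under these settings. The P450 count was 0 when ratios were centred on 84 ribosomal protein genes, scaled to the summed FPKM or scaled on mapped reads. Under these scalings 0.861%, 1.40% and 1.43% of all genes were higher. The count at least 2-fold lower, 5 in the report, was 2 with a pseudocount of 1 or a minimum mean of 5 FPKM. With these, 1.89% and 1.67% of all genes were lower. It was 3 without the rows marked Psi, beside 2.44% of all genes. It was 14 centred on ribosomal protein genes, 10 scaled to the summed FPKM and 9 scaled on mapped reads. Under these scalings 7.89%, 5.02% and 4.97% of all genes were lower. With a 1.5-fold threshold 5 were higher and 14 lower, beside 9.16% and 7.26% of all genes. The median log2 ratio was -0.56, -0.40 and -0.40 under the same 3 scalings, which shift the median of all genes by -0.44, -0.28 and -0.28. The log2 ratio of the summed P450 FPKM was -0.28, and -0.72, -0.56 and -0.56 under them, -0.14 with only genes alone in their locus, which leaves out *Cyp4g1*, and -0.071 with only *Cyp4g1* left out. The scaling on mapped reads, the settings without Psi rows, chromosome 3 or *Cyp4g1*, and the counting of *Cyp1* were chosen after seeing the data. Centring within deciles of transcript length gave 2 higher, 4 lower and a median of -0.09, with 1.76% of all genes higher and 3.40% lower. For the 35 P450 genes named by rule, the settings that can move a gene's ratio gave 238 values, of which 94 left the counting interval, 87 of them among the 102 values of the same 3 scalings. In 7 genes, none past 2-fold, 16 of these values changed sign. No paired analysis was possible because each genotype has 1 library. Depth limits the 7 P450 genes with a mean under 1 FPKM, where fewer than 80 estimated reads stood behind each value.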

Other observations

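Regulators of P450 genes are a group that the comparisons above did not cover. Of 12 such genes, 11 had a mean of at least 1 FPKM, with a median log2 ratio of -0.23 between -0.51 and 0.39 and none past 2-fold. Hr96, the xenobiotic nuclear receptor, stood at 8.27 FPKM in control males and 8.53 in *heph2* males. The oxidative stress factor cnc had 37.0 and 35.5 FPKM, and its inhibitor Keap1 5.88 and 4.90 FPKM. The partner of cnc, maf-S, was higher, at 120 and 157 FPKM. The juvenile hormone receptors Met and gce had log2 ratios of -0.28 and -0.51. EcR and usp, which form the ecdysone receptor, were at 0.23 and -0.06.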
